A study of Mus musculus with 12 samples.

Results

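Gene expression in epididymal white fat (eWAT) of mice kept at –10°C/–20°C, the most extreme cold of the study, was compared with that of mice kept at 30°C, which is thermoneutral for mice. The 3 arrays of each of these groups were chosen by their labels, where the coldest group is called simply –20°C, and they are 6 of the 12 arrays of the series. All genes with an unambiguous symbol entered the comparison, with 1 probe set per gene, which gave 14860 genes. All mice were male C57BL/6J, 7 to 8 weeks old at the start, and had been housed at 22°C. The cold rooms alternated 12 hours of light and 12 hours of dark. The cold group spent 1 week at 18°C and 1 week at 4°C. Days at –5°C followed for 3 days and days at –10°C for the rest of that week, with nights at 4°C. The last 3 weeks alternated between –20°C in the daytime and –10°C at night. The control group went straight to 30°C for an equal time, so that the groups differ in the stepwise adaptation as well as in the final temperature, and these cannot be told apart. The labels count 5 weeks of exposure. They call the arrays biological replicates but name no mouse, cage, litter, or day of hybridization, so p-values here reflect only how these arrays vary, and that variation may be technical.

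White fat stores triglyceride and releases fatty acids when noradrenaline raises cyclic AMP in the adipocyte. In prolonged cold, some white fat takes on features of brown fat, with more mitochondria and with Ucp1, the protein that lets mitochondria release energy as heat. Epididymal fat is known as a depot that does so reluctantly. Lipid breakdown, fatty acid oxidation, and renewed synthesis of fatty acids and triglyceride can run side by side in cold-exposed fat. The tissue also holds macrophages, fibroblast-like stromal cells, mesothelium, vessels, and nerves.

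Values are log2 signals, so that a difference of 1 is a 2-fold change. The 6 arrays correlated at 0.987 to 0.992 within a group and at 0.969 to 0.974 between the groups. Background was set at 4.52, the level under which 95% of 718 olfactory receptor genes lie, and was exceeded by 10210 to 10541 genes per array over the series. For genes under it throughout a group, the fold is a bound, written as "at least". Matching the values to a table of the study showed that replicates 1 and 2 of 30°C carry array names of another form than the other 4 arrays, and no source says what this form stands for. With the name form blocked in the fit, 1585 genes were called rather than 2707, and counts over gene lists that this moved by 1.5 times or more are given with both values, the blocked one as "with the block". Of the adipocyte's defining markers, Adipoq, Plin1, Fabp4, and Cidec were far above background on all 6 arrays, and their summed linear signal ranged from 13236 to 13641 with 30°C and from 12824 to 14223 with –10°C/–20°C. None of the 4 was called. Fabp4 was at 10.79, 10.86, and 10.30 with 30°C and at 10.26, 10.34, and 9.05 in the coldest group (difference −0.76, SE 0.32, adjusted p = 0.13 from limma, n = 3 arrays per group). The labelled tissue carried the markers of adipocytes. In bulk tissue, fewer cells of a type and less RNA per cell cannot be told apart.

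With –10°C/–20°C, 2707 of 14860 genes (18.2%) differed from 30°C at an adjusted p under 0.05 from limma, 1068 of them higher (7.19%) and 1639 lower (11.0%). Most measured genes of fatty acid synthesis, the pyruvate dehydrogenase complex, and branched-chain amino acid breakdown were higher. The same held for the tricarboxylic acid cycle and peroxisomes, but with the block 7 of 16 and 12 of 27 were higher. Over all genes, 555 rather than 1068 were higher with the block. Most genes of macrophages and complement were lower. A change of at least 2-fold was reached by 241 of the higher and 389 of the lower genes, and one of at least 4-fold by 39 and 37. The median log2 difference of all genes was −0.03. The 3 arrays of one group lay wholly above or wholly below the other 3 in 30.6% of all genes. The balance between higher and lower genes depended on the scaling. It was 1313 to 1487 after a repeated quantile normalization and 1905 to 1004 after centring the arrays on their medians, which moved the median of all genes by 0.15 to 0.13.

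**Figure D1:**
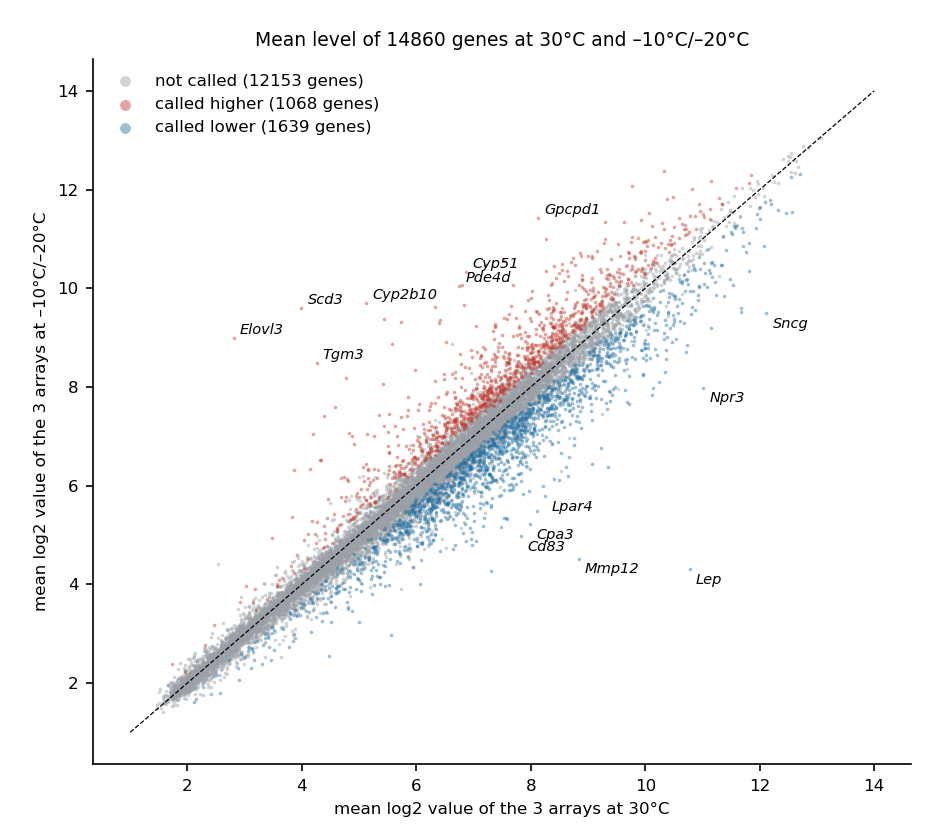
Each point is 1 of 14860 genes, with its mean log2 value over the 3 arrays at 30°C on the horizontal axis and at –10°C/–20°C on the vertical axis, and the dashed line marks equal values. Red points (1068) were called higher and blue points (1639) lower by limma, and Elovl3, Scd3, Cyp2b10, and Lep lie farthest from the line among the labelled genes.

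Genes of lipid metabolism led the increases. Elovl3, the elongase of very long chain fatty acids in brown fat, had log2 values of 2.63, 2.85, and 2.96 with 30°C and of 7.67, 9.63, and 9.66 in the coldest group. All 3 cold arrays were far above the 3 controls, which were below background, and this sets a minimum of 22.1-fold for the rise (log2 difference 6.17, SE 0.73, adjusted p = 0.00022 from limma). Scd3, a stearoyl-CoA desaturase, was at 3.95, 4.13, and 3.90 with 30°C and at 8.71, 10.11, and 9.99 with –10°C/–20°C, at least 33.8-fold higher (adjusted p = 2e-05). In both genes, replicate 1 of the coldest group was the lowest of its group. The same array was lowest for Cyp2b10, a cytochrome P450 known from the liver's response to foreign compounds, with values of 7.99, 10.46, and 10.67 against 4.79, 5.54, and 5.02 (24.0-fold, adjusted p = 0.00022). Tgm3, a transglutaminase known from skin, was under background throughout the 30°C group and increased at least 15.7-fold (adjusted p = 0.00042).

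The next increases spanned carbohydrate storage, transcription, sterols, and cyclic AMP. Gys2, the glycogen synthase of liver and fat, rose 15.5-fold, from 5.41, 4.79, and 6.09 to 8.71, 9.64, and 9.80 (adjusted p = 0.0001). Nr4a3, an orphan nuclear receptor that responds early to cyclic AMP, was at 5.72, 5.59, and 5.90 with 30°C and at 9.68, 9.23, and 9.01 in the coldest group (11.9-fold, SE 0.26 on the log2 scale, adjusted p = 2.9e-05). Neither gene had overlapping groups. Cyp51, the lanosterol demethylase of cholesterol synthesis, rose 11.0-fold, and Cidea, a lipid droplet protein of brown fat, 10.7-fold. Serpina3b, a serine protease inhibitor, rose 9.87-fold, and Pde4d, a phosphodiesterase that degrades cyclic AMP, 9.85-fold. Gpcpd1, which breaks down glycerophosphocholine, rose 9.77-fold and Cox8b, a subunit of cytochrome c oxidase, 9.71-fold. Their adjusted p-values were between 4.3e-05 and 0.00046.

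Several further increases, chosen after their values were seen, belong to receptors and transporters. Mc5r, a melanocortin receptor that couples to cyclic AMP, was at 6.52, 6.11, and 6.57 with 30°C and at 8.99, 9.55, and 9.32 with –10°C/–20°C (7.40-fold, adjusted p = 2.9e-05). Mfsd2a, a transporter of lysophospholipids, had only background signal with 30°C and was at 5.83, 7.92, and 7.40 in the coldest group, at least 5.77-fold higher (adjusted p = 0.0005). Lepr, the leptin receptor, was also below background with 30°C and reached 4.88, 7.29, and 7.40, with replicate 1 close to the controls. Its rise was at least 4.02-fold (adjusted p = 0.013), but the call was lost without replicate 2 or replicate 3 of the coldest group and with the name form blocked. Apoc3, an apolipoprotein that inhibits lipoprotein clearance, rose 7.61-fold, and Slc5a6, the transporter of biotin and pantothenate, had a log2 difference of 2.40. Lipg, the endothelial lipase, rose at least 3.98-fold, and Chchd10, a mitochondrial protein, by 1.98 on the log2 scale.

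**Figure D2:**
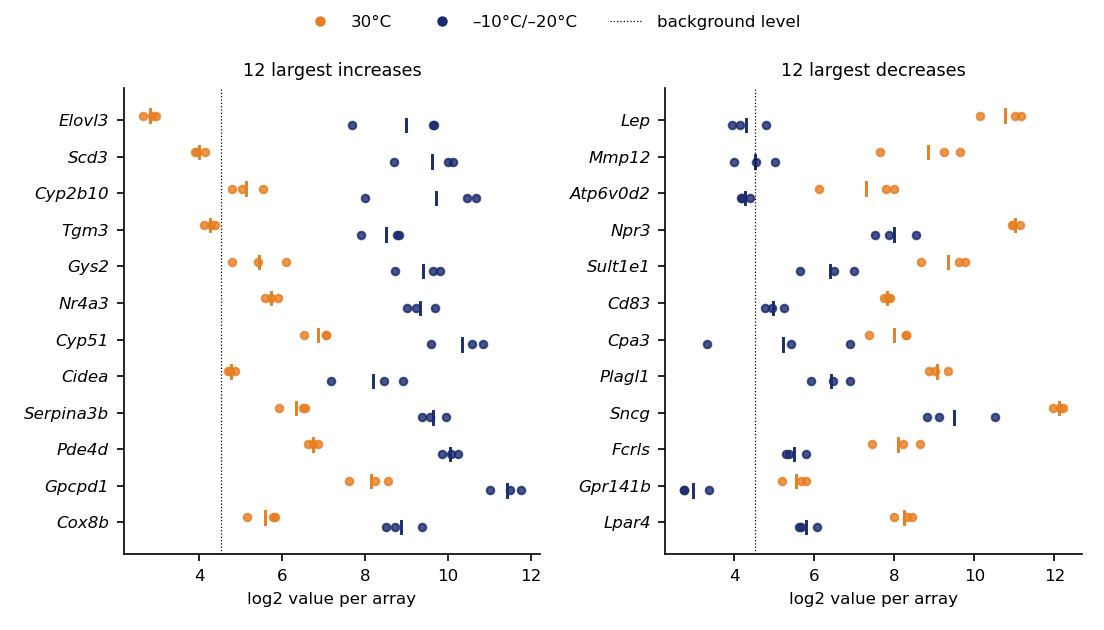
Log2 value of each array (points) and group mean (short line) for the 12 genes with the largest fitted rise and the 12 with the largest fitted fall, of the called genes whose 3 arrays lay wholly above or below those of the other group. Orange stands for 30°C, dark blue for –10°C/–20°C, and the dotted line is the background level of 4.52. No gene shown has overlapping groups, and Lep, Mmp12, Atp6v0d2, and Gpr141b end near or under the background level.

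Gene lists are described by how many measured members were called and by their median, without a test of the list. Shares of called genes in a list are to be read against 7.19% higher and 11.0% lower over all genes. Some genes are counted in several lists, so the lists are not separate results. The macrophage list shares C1qa, C1qb, C1qc, and Itgam with complement and Ccr2 with the chemokines and receptors. It also shares Cd68, Ctsk, and Atp6v0d2 with the lysosomal genes and Mmp12 with the matrix enzymes.

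**Figure D3:**
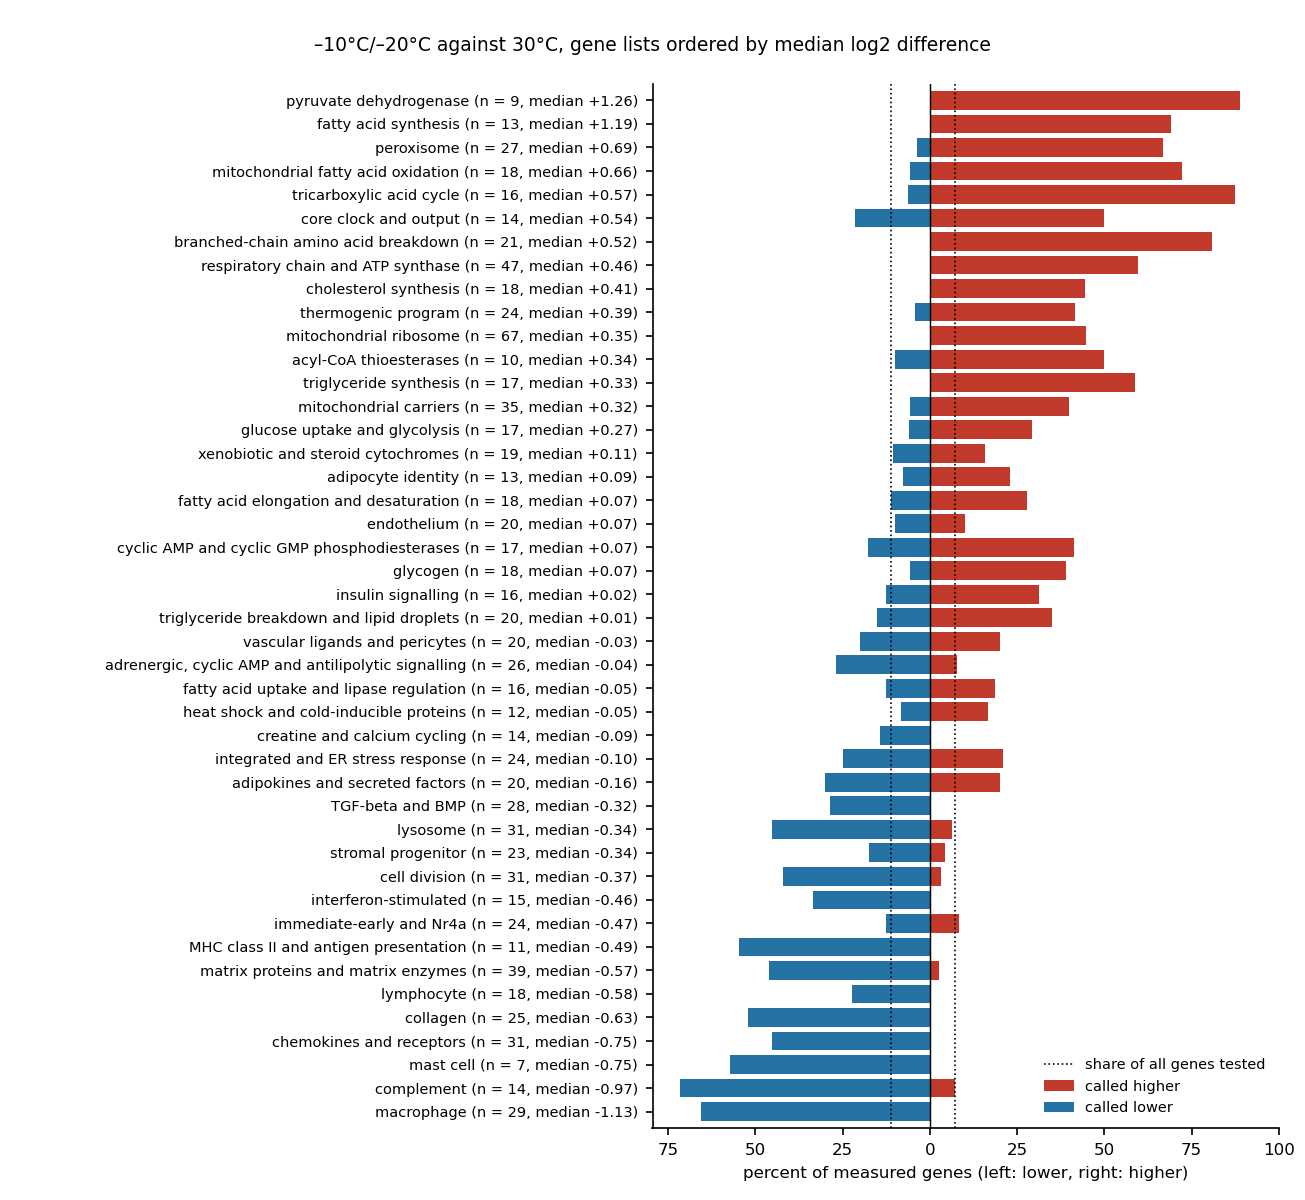
Each row is a list of genes, with the number measured and the median log2 difference between –10°C/–20°C and 30°C. Bars give the percent of measured members called higher (right) or lower (left), and dotted lines give the same shares over all 14860 genes (7.19% and 11.0%). The pyruvate dehydrogenase list has the highest median (1.26) and the macrophage list the lowest (−1.13).

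Of 13 measured genes of fatty acid synthesis (Pdhb among them, which the pyruvate dehydrogenase list shares), 9 rose, none fell, and 4 were not called, with a median log2 difference of 1.19. Acacb, the acetyl-CoA carboxylase of the mitochondrial surface, was at 8.32, 8.08, and 8.37 with 30°C and at 10.25, 10.38, and 10.43 with –10°C/–20°C (difference 2.09, SE 0.13, adjusted p = 1.2e-05). Fasn, the fatty acid synthase, had values of 10.27, 9.85, and 10.84 with 30°C and of 12.48, 12.29, and 12.39 in the coldest group. The 3 controls of Fasn were widely spread, and none reached the cold arrays (difference 2.07, SE 0.29, adjusted p = 0.00055). Acly, which makes cytosolic acetyl-CoA, rose by 1.79 (adjusted p = 0.0078), but this call was lost with the name form blocked. Slc25a1, the citrate carrier that feeds Acly, rose by 1.19 on the log2 scale (adjusted p = 0.0022). Among the factors known to drive this pathway, Nr1h3, which encodes LXRα, rose by 0.75 and Mlx, the partner of ChREBP, by 0.74 (adjusted p = 0.00045 and 0.0032). Srebf1 had a difference of −0.15 (adjusted p = 0.76) and Mlxipl, which encodes ChREBP, one of 0.66 (adjusted p = 0.053).

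Within the desaturase and elongase families the members differed in response. Scd1, the main desaturase of fat, was at 12.65, 12.83, and 12.80 with 30°C and at 12.95, 12.85, and 12.83 in the coldest group (difference 0.12, adjusted p = 0.43). Scd2 had a difference of 0.78 with overlapping groups (adjusted p = 0.078), and Scd4 was below background on all 6 arrays. The Scd genes are near-identical in parts, and whether their probes pick up each other's RNA was not tested. Among the elongases, Elovl6, which extends palmitate, was at 6.67, 6.52, and 7.19 with 30°C and at a mean of 10.07 in the coldest group (difference 3.28, SE 0.48, adjusted p = 0.00082). Elovl5, an elongase of polyunsaturated fatty acids, rose by 1.71 and Elovl1, which makes saturated very long chains, fell by 0.82 (adjusted p = 6.7e-05 and 0.00069). Elovl7 was not called (0.44, adjusted p = 0.73), and Elovl2 and Elovl4 were below background on all 6 arrays. Over all 18 genes of elongation and desaturation, 5 rose and 2 fell, or 5 and 1 with the block.

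Genes of triglyceride assembly were higher at several steps, with 10 of 17 higher, none lower, and a median of 0.33. Agpat2, which adds the second fatty acid to the glycerol backbone, was at 9.80, 9.84, and 9.63 with 30°C and at 12.17, 12.03, and 12.02 with –10°C/–20°C, a difference of 2.31 with an SE of 0.13 (adjusted p = 6.8e-06). Gpam and Gpat3, which add the first, rose by 2.05 and 1.71. Dgat1, which adds the last, was at 8.46, 9.10, and 8.78 against 10.53, 10.38, and 10.53 (difference 1.70, adjusted p = 7.1e-05). In all 4 enzymes the 3 cold arrays lay above every control. Gpd1, which makes glycerol 3-phosphate from a glycolytic intermediate, rose by 1.59 (adjusted p = 0.00075).

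Genes of lipid droplets and triglyceride breakdown went both ways, with 7 of 20 higher, 3 lower, and a median of 0.01, or 5 and 1 with the block and 8 and 1 with centring. Lipe, the hormone-sensitive lipase, was not among the measured genes of this list. Plin5, a droplet protein of oxidative tissues, was at 6.19, 6.21, and 6.38 with 30°C and at 7.13, 7.82, and 8.08 in the coldest group (difference 1.41, adjusted p = 0.00053). The carboxylesterases Ces1f and Ces1d, near-identical members of a gene cluster, rose by 1.45 and 0.84, and Fitm2, which partitions fat into droplets, by 1.22. Pnpla2, the rate-limiting triglyceride lipase, rose by 0.32 (SE 0.09, adjusted p = 0.026), a call lost with the name form blocked, when only the 6 arrays were fitted, and without –10°C/–20°C replicate 1 or 30°C replicate 2 or 3. Among genes of fatty acid uptake, Slc27a1, a fatty acid transport protein that moves to the surface with insulin, was at 10.83, 10.79, and 10.82 with 30°C and rose by 1.19 (SE 0.12) in log2 units (adjusted p = 7.6e-05). Within each group its arrays lay close together. Angptl4, an inhibitor of lipoprotein lipase, had a difference of −0.62 (adjusted p = 0.015), which was not called with the block, with centring, or without –10°C/–20°C replicate 2 or 3 or 30°C replicate 1.

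Cholesterol synthesis had 8 of 18 genes higher, none lower, and a median of 0.41. With the name form blocked, 3 were higher. Beside Cyp51, Pmvk, a kinase of the mevalonate pathway, was at 6.92, 7.10, and 7.13 with 30°C and at 9.42, 9.30, and 8.99 in the coldest group (difference 2.19, adjusted p = 0.00011). Hmgcs1, the enzyme that makes the precursor of mevalonate, rose by 0.87 (adjusted p = 0.0085, lost with the block), and Insig1, which retains the sterol sensor in the endoplasmic reticulum, by 0.91 (adjusted p = 0.036, lost with the block and without any 1 of 4 of the 6 arrays, all but –10°C/–20°C replicate 2 and 30°C replicate 2). Srebf2, the factor that activates this pathway when sterols are low, had a difference of −0.15 (adjusted p = 0.43). The promoter of Hmgcs1 is shown because it holds the letters of a sterol regulatory element, the site such factors bind. It is the 250 bases before the RefSeq start site at chr13:119690101-119690350 (plus strand, GRCm38.p6), with the match to TCACNCCAC in capitals.
Hmgcs1: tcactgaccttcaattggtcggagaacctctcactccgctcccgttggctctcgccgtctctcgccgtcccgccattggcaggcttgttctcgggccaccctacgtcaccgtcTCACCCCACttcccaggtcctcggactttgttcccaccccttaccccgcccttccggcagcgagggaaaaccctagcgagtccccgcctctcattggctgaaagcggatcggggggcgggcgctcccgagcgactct
The match begins 137 bases before the start. Searched on both strands, this motif was present in 1.0% of the 14927 start sites of the genes tested. By gene, 146 of 11894 with a promoter sequence held it (1.23%), as did 1 of the 14 cholesterol synthesis genes with one.

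Carbohydrate genes were mixed. Of 18 glycogen genes, 7 rose and 1 fell, with a median of 0.07, and of 17 genes of glucose uptake and glycolysis, 5 rose and 1 fell, with a median of 0.27. With the name form blocked, 4 and 2 rose. Gbe1, the branching enzyme, rose by 1.15 and Gys1, the glycogen synthase of muscle, by 0.87. Ppp1r3c, a subunit that targets phosphatase to glycogen, was at 6.52, 6.33, and 6.56 with 30°C and at 5.53, 5.46, and 5.56 in the coldest group, lower on every array (difference −0.95, adjusted p = 0.0014). Hk2, a hexokinase that responds to insulin, was at 7.17, 7.43, and 7.70 against 8.76, 8.71, and 8.71 (difference 1.29, adjusted p = 0.00016). Slc2a4, the insulin-responsive glucose transporter, rose by 0.69 (adjusted p = 0.021), a call lost with the block and without –10°C/–20°C replicate 1 or 3 or 30°C replicate 2.

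The pyruvate dehydrogenase complex, which turns pyruvate into acetyl-CoA inside mitochondria, and its kinases had the highest median of all lists, 1.26, with 8 of 9 genes higher, 3 of the 8 being the inhibitory kinases Pdk1, Pdk2, and Pdk4. The call of Pdk4 (difference 0.51, adjusted p = 0.039) was lost on leaving out any array of 30°C, replicate 2 or 3 of the coldest group, replicate 1 or 2 of –10°C, or replicate 1 of 4°C, with differences of 0.35 to 0.56, and with the block. Pdhb, a subunit of its first enzyme, was at 4.71, 5.16, and 5.51 with 30°C and at 6.63, 7.31, and 7.21 with –10°C/–20°C (difference 1.92, SE 0.21, adjusted p = 0.00014). Dlat, the second enzyme, was at 6.68, 7.07, and 7.19 against 8.43, 8.72, and 8.67 (difference 1.63, adjusted p = 5.6e-05), and Pdhx, which anchors the third, rose by 1.69. Pdk1, a kinase that switches the complex off, rose by 1.34 on the log2 scale (adjusted p = 0.00035). Subunits and inhibitors of the complex were higher on the same arrays.

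Of 16 genes of the tricarboxylic acid cycle, 14 rose and 1 fell, and the median was 0.57. Idh3a, a subunit of isocitrate dehydrogenase, was at 8.42, 8.53, and 8.77 with 30°C and at 9.33, 9.61, and 9.61 in the coldest group (difference 0.94, adjusted p = 0.00029). Dlst and Dld, parts of the 2-oxoglutarate dehydrogenase complex, rose by 0.83 and 1.26. With the name form blocked, 7 rose. Among 47 respiratory chain and ATP synthase subunits, 28 rose and none fell, with a median of 0.46, or 19 with the block. Uqcr10, a small subunit of complex III, was at 7.92, 8.46, and 8.55 against 9.69, 9.52, and 9.58 (difference 1.28, adjusted p = 0.00024). The mitochondrial ribosome had 30 of 67 members higher, none lower, and a median of 0.35, and the block left 13. Mrps18b was its member with the largest difference, 1.0, from 7.18, 7.09, and 7.30 to 8.28, 8.17, and 8.13. Hspa9, the mitochondrial Hsp70, rose by 0.93 (adjusted p = 0.00045).

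The list of mitochondrial carriers had 14 of 35 members that rose, 2 that fell, and a median of 0.32, with 9 higher under the block. The 14 include Slc25a17, a carrier of peroxisomes, Slc25a46, of the outer membrane, and Ucp1, whose group means were below background. Slc25a33, a pyrimidine nucleotide carrier, was at 4.33, 5.10, and 5.18 with 30°C and at 6.94, 7.25, and 6.84 in the coldest group (difference 2.14, adjusted p = 8.6e-05). Slc25a25, a carrier of ATP and magnesium regulated by calcium, rose by 1.24, and Slc25a20, which brings acylcarnitines into the matrix, by 1.55 (adjusted p = 0.00093 and 0.00013).

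Of 18 genes of mitochondrial fatty acid oxidation, 13 rose, 1 fell, and the median was 0.66. Cpt2, which frees fatty acids from carnitine inside the organelle, was at 8.10, 8.30, and 8.50 with 30°C and at 9.79, 9.68, and 10.12 with –10°C/–20°C (difference 1.56, adjusted p = 3.9e-05). Acadvl and Etfdh, a dehydrogenase of very long chains and the enzyme that passes its electrons on, rose by 1.01 and 1.05. The member that fell was Cpt1a, the liver form of the entry enzyme, from 8.36, 8.73, and 8.74 to 7.82, 7.73, and 7.85 (difference −0.81, adjusted p = 0.00087). Of 27 peroxisome genes, 18 rose, 1 fell, and the median was 0.69, with 12 higher under the block. The 18 included 9 Pex genes of peroxisome formation, while Acox2, Acox3, Ech1, Crot, Amacr, and Cat were not called. Ehhadh, the bifunctional enzyme of peroxisomal oxidation, was at 7.08, 6.68, and 7.87 against 9.67, 10.61, and 11.14, a 9.60-fold rise (SE 0.36 on the log2 scale, adjusted p = 0.00015). Pex16 and Pex11a, which act in the formation and division of peroxisomes, rose by 1.87 and 1.65, and Hacl1, an enzyme of alpha-oxidation, by 1.66. Abcd2, a peroxisomal importer of fatty acids, fell by 0.86 (adjusted p = 0.0023).

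The acyl-CoA thioesterases, which release free fatty acids from coenzyme A, had 5 of 10 members higher and 1 lower, or 3 and 0 with the block. Acot3, a peroxisomal form, was at 4.46, 4.59, and 4.68 with 30°C and at 7.16, 7.52, and 8.12 with –10°C/–20°C (difference 3.02, SE 0.56, adjusted p = 0.0031). Acot5 had only background signal with 30°C and increased at least 3.53-fold (adjusted p = 0.00031). Acot3, Acot4, Acot5, and Acot6 are near-identical neighbours in 1 cluster, so whether they responded separately was not tested.

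Breakdown of branched-chain amino acids had 17 of 21 genes higher and none lower, with a median of 0.52, and 12 higher with the block. Bcat2, the mitochondrial transaminase of the first step, was at 8.69, 8.23, and 8.42 with 30°C and at 10.05, 10.34, and 10.23 in the coldest group, a 3.39-fold rise (SE 0.13 on the log2 scale, adjusted p = 3.2e-05). Bckdha and Bckdhb, which form the first enzyme of the branched-chain dehydrogenase, rose by 1.07 and 1.08. Ppm1k, the phosphatase that activates this dehydrogenase, had values of 6.49, 6.54, and 7.01 against 7.55, 8.39, and 8.58 (difference 1.49, adjusted p = 0.0047). Transaminase, dehydrogenase, and activating phosphatase were all higher on every cold array than on any control.

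Of 24 genes of the thermogenic program, 10 rose, 1 fell, and 13 were not called, with a median of 0.39. Cox7a1 was not among the measured genes of this list. Ucp1 was at 3.90, 3.76, and 3.79 with 30°C and at 4.85, 4.01, and 4.25 in the coldest group, above background on replicate 1 alone. Its difference of 0.55 (SE 0.17, adjusted p = 0.048) carries no fold, since both group means were below background, and the call was lost with the name form blocked, with a repeated quantile normalization, when only the 6 arrays were fitted, and without any 1 of them but –10°C/–20°C replicate 2. Ppara, the nuclear receptor of oxidative genes, was at 5.83, 6.09, and 5.97 against 6.77, 7.46, and 7.26 (difference 1.20, adjusted p = 0.00036). Ppargc1a, a coactivator of mitochondrial genes, was at 6.89, 7.14, and 6.82 against 9.19, 8.04, and 7.61. Its groups did not overlap, but replicate 1 stood well above the others, and the difference of 1.33 was not called (SE 0.43, adjusted p = 0.054). Prdm16, a determinant of brown fat identity, had a difference of −0.07 (adjusted p = 0.74), with a sign that turned under other scalings. Irf4, a cold-induced transcription factor of fat, was at 6.18, 8.17, and 8.27 with 30°C and at 10.71, 10.46, and 10.50 in the coldest group (difference 3.02, adjusted p = 0.0065), with 1 control well below the other 2.

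Dio2, which turns the prohormone of thyroid hormone into its active form, stayed under background with 30°C, at 3.90, 3.98, and 3.72. With –10°C/–20°C it was at 6.33, 6.47, and 6.14, at least 3.47-fold higher (adjusted p = 0.0039). Its promoter is shown because it holds a full cyclic AMP response element, the site of factors activated by cyclic AMP. The sequence is the 250 bases before the RefSeq start site at chr12:90739039-90739288 (minus strand, GRCm38.p6), with the match to TGACGTCA in capitals.
Dio2: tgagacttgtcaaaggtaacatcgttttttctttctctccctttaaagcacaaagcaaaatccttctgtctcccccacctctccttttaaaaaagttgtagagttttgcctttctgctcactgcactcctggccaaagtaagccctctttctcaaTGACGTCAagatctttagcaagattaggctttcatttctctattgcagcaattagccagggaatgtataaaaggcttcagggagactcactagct
The match begins 95 bases before the start. This motif reads the same on both strands and was present in 2.0% of the 14927 start sites. By gene, 35 of 869 higher genes with a promoter sequence held it (4.03%), as did 20 of 1294 lower genes (1.55%) and 276 of all 11894 (2.32%), a description without a test. Slc25a25 and Hlf were among the higher holders and Dusp1 among the lower.

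Phosphodiesterases, most of which degrade cyclic AMP, cyclic GMP, or both, moved in opposite ways. Of 17 genes of the family, 7 rose and 3 fell, or 4 and 2 with the name form blocked. Of those that fell, Pde6d, which carries lipid-modified proteins and degrades no cyclic nucleotide, had a difference of −0.51 (adjusted p = 0.038), a call lost with the block, with centring, and without –10°C replicate 2, any array of the coldest group, or 30°C replicate 1 or 3. Pde4d was at 6.75, 6.63, and 6.87 with 30°C and at 9.85, 10.07, and 10.23 with –10°C/–20°C, with little spread within either group (difference 3.30, SE 0.28, adjusted p = 4.3e-05). Pde4b, of the same family, was lower on every cold array (difference −0.88, adjusted p = 0.0037), and Pde4a and Pde4c had differences of −0.05 and 0.07 (adjusted p = 0.80 and 0.65). Pde3b, the form that insulin activates in adipocytes, rose by 0.50 (adjusted p = 0.0049). Pde3a had overlapping groups (difference −0.16, adjusted p = 0.73). Pde7a fell by 1.17 and Pde7b rose by 0.65.

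In the list of adrenergic, cyclic AMP, and antilipolytic genes, 7 of 26 fell and 2 rose, or 5 and 1 with the block and 6 and 5 with the arrays centred on their medians. The median of −0.04 was close to that of all genes. Of 35 genes listed, 26 were measured. Adra1b and Adra2c were the only adrenergic receptors among them, so the list says nothing about beta-adrenergic receptors. Npr3, which clears natriuretic peptides and thereby limits their lipolytic signal, was at 10.96, 10.93, and 11.14 with 30°C and at 8.54, 7.53, and 7.87 in the coldest group, an 8.17-fold fall (SE 0.40 on the log2 scale, adjusted p = 0.00037). Hcar1, the lactate receptor of adipocytes, was at 8.95, 8.19, and 8.84 against 7.20, 5.88, and 6.68 (difference −2.07, adjusted p = 0.00079). Ffar2 and Sucnr1, receptors of short-chain fatty acids and of succinate that couple to the same inhibitory pathway, fell by 2.0 and 1.72. Their groups did not overlap. The other 3 that fell were Gnai2, an inhibitory G protein subunit (−0.56, adjusted p = 0.00084), and the adenylyl cyclases Adcy6 and Adcy7 (−0.51 and −0.32, adjusted p = 0.013 and 0.043). Adcy6 lost its call with the block and without –10°C/–20°C replicate 2 or 30°C replicate 3, and Adcy7 with the block, with both scalings, and without any 1 array but –10°C/–20°C replicate 3 and 4°C replicate 2. Ptger3, a prostaglandin E2 receptor that also lowers cyclic AMP, was at 7.42, 6.45, and 7.66 with 30°C and at 9.15, 8.19, and 8.11 in the coldest group (difference 1.31, SE 0.41, adjusted p = 0.049). Its call was lost on leaving out 30°C replicate 1 or 2, any array of the coldest or the –10°C group, or 4°C replicate 1 or 3, with differences of 0.94 to 1.49, and with the block. The inhibitory receptors Hcar2, Npy1r, and Adra2c and the fatty acid receptor Ffar4 were not called (differences −1.10, 0.56, 0.12, and −0.24, adjusted p = 0.057, 0.21, 0.54, and 0.39). Hcar2 was called lower without –10°C/–20°C replicate 1 or 30°C replicate 1 (−1.59 and −1.36), and Ffar4 without the first of these (−0.43). Adcy3, an adenylyl cyclase that makes cyclic AMP, rose from 6.29, 6.12, and 6.57 to 7.45, 7.62, and 7.97 (difference 1.35, adjusted p = 0.00011).

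Nr4a3 was not followed by its relatives. Nr4a1 was at 7.83, 8.22, and 7.93 with 30°C and at 6.84, 7.04, and 7.88 with –10°C/–20°C, with overlapping groups (difference −0.74, adjusted p = 0.51), and Nr4a2 had a difference of −0.62 (adjusted p = 0.012, lost with the block and without –10°C/–20°C replicate 2). Whether the 3 differ in response was not tested. In the wider list of 24 immediate-early and Nr4a genes, 2 rose, 3 fell, and 19 were not called, with a median of −0.47. With centring 2 rose and 1 fell. The other member that rose was Crem, a cyclic AMP responsive modulator (0.78, adjusted p = 0.0081). Dusp1, a stress-induced phosphatase, had a difference of −1.02 (adjusted p = 0.032), not called with centring or without any 1 of 5 of the 6 arrays, all but –10°C/–20°C replicate 1.

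Among 20 adipokines and other secreted factors, 4 rose and 6 fell, or 3 and 3 with the block and 4 and 3 with centring. Lep, the satiety hormone of fat, was at 11.02, 10.15, and 11.16 with 30°C and at 4.81, 3.94, and 4.16 with –10°C/–20°C, below background on 2 of the 3 cold arrays (difference −6.48, SE 0.83, adjusted p = 0.00034). Sfrp5, a secreted Wnt inhibitor, was at 7.65, 7.55, and 7.22 against 5.64, 4.58, and 5.25 (difference −2.32, adjusted p = 0.00022). Nrg4, a factor released by brown fat, rose from 8.87, 8.37, and 8.85 to 10.68, 10.55, and 10.37 (difference 1.83, adjusted p = 6.5e-05), and Nampt, an enzyme of NAD synthesis that is also secreted, by 0.92. Retn, which encodes resistin, was at 12.77, 12.89, and 12.87 against 12.96, 12.86, and 12.72, a difference of 0.00 with a 95% interval of −0.19 to 0.19.

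In insulin signalling, 5 of 16 genes rose and 2 fell, or 3 and 2 with the block. Grb14, an adaptor that inhibits the insulin receptor, was at 6.54, 6.90, and 7.0 with 30°C and at 5.06, 4.81, and 5.23 in the coldest group (difference −1.78, adjusted p = 0.0012), whereas Grb10, of the same family, rose by 0.89 (adjusted p = 0.00053). Irs3, an insulin receptor substrate of rodent fat, fell by 1.03 and Foxo1 rose by 0.58 (adjusted p = 0.0038 and 0.0022).

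Genes of the circadian clock differed in both directions. Of 14 genes, 7 rose and 3 fell, with a median of 0.54, or 4 and 1 with the name form blocked. Arntl, which encodes the activator BMAL1, was at 7.26, 7.23, and 7.43 with 30°C and at 4.52, 5.69, and 6.49 with –10°C/–20°C, where the 3 arrays were widely spread (difference −1.74, SE 0.43, adjusted p = 0.015, lost with the block). Its partner Npas2 fell from 8.05, 7.21, and 7.68 to 5.74, 5.97, and 6.36 (difference −1.62, adjusted p = 0.0038). Several genes of the opposing limb or of clock output were higher, while Per1, Nfil3, Bhlhe40, and Bhlhe41 were not called. Per2, Cry2, and Nr1d1 were not among the 14 measured genes. Dbp, an output factor that binds D-boxes, was at 7.16, 7.68, and 7.29 against 9.76, 9.35, and 8.60 (difference 1.86, adjusted p = 0.0067). Nr1d2, the repressor REV-ERBβ, rose by 1.79 and Hlf, a relative of Dbp, by 1.02 (adjusted p = 0.0017 and 0.0011). Neither the labels nor the methods used here give the hour at which tissue was taken, so an effect of temperature and one of clock phase cannot be told apart. The coldest arrays with the highest Dbp had the lowest Arntl.

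Per3, a repressor of the clock, rose by 0.64 (adjusted p = 0.037, lost with the block, with array weights, and without any 1 of the 6 arrays but –10°C/–20°C replicate 1 and 30°C replicate 2), and Per1 had a difference of 0.12 (adjusted p = 0.69). The promoter of Per3 is shown because it holds a pair of D-boxes, the sites of Dbp, Tef, and Hlf. It is the 250 bases before the RefSeq start site at chr4:151044666-151044915 (minus strand, GRCm38.p6), with the matches to TTATGTAA in capitals.
Per3: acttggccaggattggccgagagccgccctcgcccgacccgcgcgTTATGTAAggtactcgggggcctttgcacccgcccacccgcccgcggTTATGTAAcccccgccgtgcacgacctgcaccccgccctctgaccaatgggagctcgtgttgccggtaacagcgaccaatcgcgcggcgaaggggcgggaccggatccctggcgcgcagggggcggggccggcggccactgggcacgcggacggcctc
They begin 205 and 158 bases before the start. Searched on both strands, this motif was present in 0.63% of the 14927 start sites. By gene, 93 of 11894 with a promoter sequence held it (0.78%), as did 1 of the 13 clock genes with one.

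**Figure D4:**
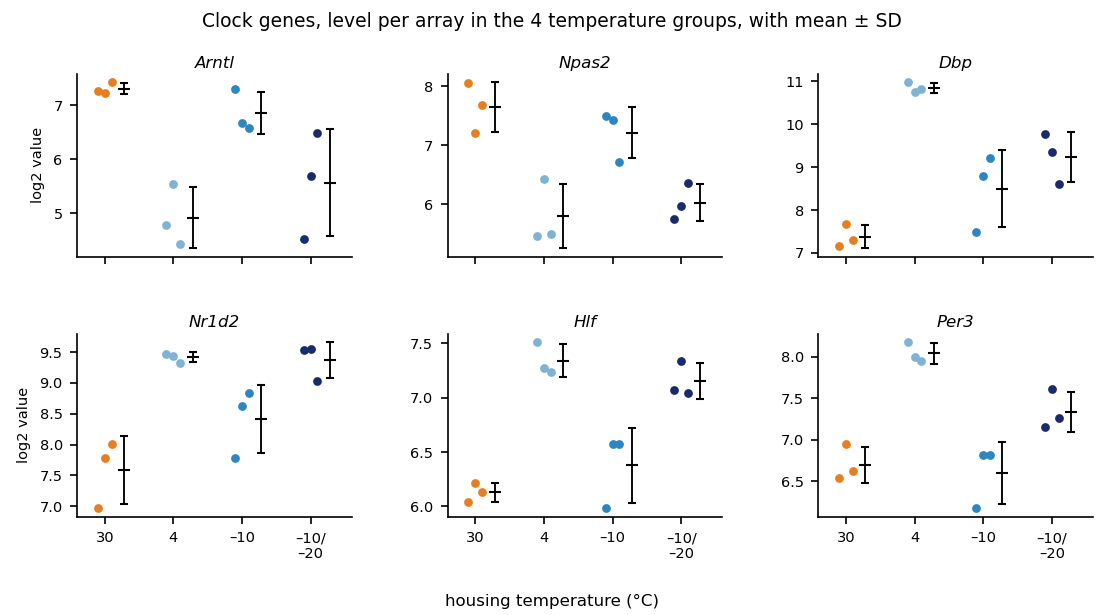
Log2 value of each array (points) and mean ± SD over 3 arrays (black) for 6 clock genes in the 4 temperature groups. Arntl and Npas2 are lower, and Dbp, Nr1d2, Hlf, and Per3 higher, in the coldest group than in the 30°C group, and the 4°C arrays lie beyond the coldest ones for Dbp (mean log2 10.85 against 9.24).

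Stress genes showed no common direction. Of 24 genes of the integrated and endoplasmic reticulum stress response, 5 rose and 6 fell, with a median of −0.10, or 3 and 4 with the block and 5 and 3 with centring. Chac1, a glutathione-degrading target of the integrated stress response, was at 6.90, 7.20, and 7.31 with 30°C and at 8.34, 8.68, and 8.84 in the coldest group (difference 1.49, adjusted p = 0.00038). Asns, the asparagine synthetase of the same response, rose by 1.0, whereas Mthfd2, a mitochondrial folate enzyme also under its control, fell by 0.96 (adjusted p = 0.0003 and 0.0037). Ddit4, an inhibitor of mTOR, rose by 1.30 (adjusted p = 0.0072, lost with the block). Among 12 heat shock and cold-inducible genes, Hspa9 and Hspb8 rose and Hspb7 fell (difference −1.54, adjusted p = 0.016), the last call being lost with the block, when only the 6 arrays were fitted, and without –10°C/–20°C replicate 3. Hspb8 (difference 0.98) lost its call with the block.

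Further large decreases came from genes of immune cells, mast cells, and adipocytes. Mmp12, a macrophage elastase, was at 7.64, 9.23, and 9.63 with 30°C and at 3.99, 4.54, and 5.01 in the coldest group (difference −4.32, SE 0.56, adjusted p = 0.00037). Atp6v0d2, a proton pump subunit of macrophages and osteoclasts, fell at least 6.87-fold, since all 3 cold arrays were below background (adjusted p = 0.0015). Sult1e1, the estrogen sulfotransferase, fell by 2.96, and Cd83, a marker of activated antigen-presenting cells, by 2.85 (adjusted p = 0.0013 and 4.1e-06). Cd83 had tight groups, at 7.86, 7.74, and 7.88 against 4.94, 4.77, and 5.23. Cpa3, a mast cell protease, had a difference of −2.77, with cold arrays from 3.32 to 6.90 (adjusted p = 0.028), and its call was lost with the block, in the 6-array fit, and without any 1 of 4 of the 6 arrays.

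Plagl1, an imprinted zinc finger factor, fell by 2.64, and Sncg, a synuclein abundant in white adipocytes, from 12.21, 11.97, and 12.15 to 10.53, 8.82, and 9.12 (difference −2.62, adjusted p = 0.0034). Fcrls, an Fc receptor-like gene of macrophages, fell by 2.62, Gpr141b at least 2.05-fold, and Lpar4, a receptor of lysophosphatidic acid, by 2.47. Decreases of similar size, named after their values were seen, included Slc5a3, the myo-inositol transporter (−2.46), and Hpgd, which inactivates prostaglandins (−2.28). Hpgd was at 10.05, 10.24, and 10.07 with 30°C and at 7.98, 7.61, and 7.92 with –10°C/–20°C (adjusted p = 3.6e-05).

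Macrophage genes were lower as a group, with 19 of 29 lower, none higher, and a median of −1.13. Adgre1, which encodes F4/80, was at 8.04, 8.37, and 8.73 with 30°C and at 6.50, 7.54, and 6.50 in the coldest group (difference −1.53, adjusted p = 0.0026). Csf1r, the receptor that sustains these cells, was at 9.61, 9.57, and 9.79 against 8.65, 8.45, and 8.38 (difference −1.16, adjusted p = 3.9e-05). Itgam had overlapping groups, with 1 cold array at 8.85 above every control (difference −0.66, adjusted p = 0.25). The same array, replicate 2, was the highest cold array for Adgre1 and for Itgb2. Clec7a, a receptor for fungal glucan, and Folr2, a folate receptor of resident macrophages, fell by 2.16 and 1.99. The summed linear signal of the list ranged from 17474 to 20432 with 30°C and from 11542 to 12695 with –10°C/–20°C. That sum includes Lpl, which is also in the adipocyte list and was not called (means 12.50 and 12.59). The 5 defining markers, Adgre1, Cd68, Csf1r, Mrc1, and Itgam, summed to 2767.3 to 3504.5 with 30°C and to 1307.9 to 1633.2 in the coldest group. No defining marker was below background on all 6 arrays. The part of a change in cell number in the results on chemokines, complement, and antigen presentation was not tested.

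Of 31 chemokines and their receptors, 14 fell and none rose, with a median of −0.75. Ccr2, the receptor that draws monocytes into tissue, was at 7.79, 7.37, and 7.85 with 30°C and at 6.09, 6.21, and 6.16 in the coldest group (difference −1.51, adjusted p = 9.9e-05). Cxcl16 and Cxcl9, both attractants of T cells, fell by 1.66 and 1.59. Of 14 complement genes, 10 fell and 1 rose, with a median of −0.97. C3ar1, the receptor of the C3a fragment, was at 9.79, 10.04, and 10.06 against 8.37, 8.31, and 8.04 (difference −1.73, adjusted p = 1.2e-05), and C6, of the membrane attack complex, fell by 1.91. The member that rose was Masp1, a protease of the lectin pathway, from 5.64, 5.23, and 5.71 to 7.18, 7.63, and 7.52 (difference 1.92, adjusted p = 0.00015).

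The list of MHC class II and antigen presentation had 6 of 11 genes lower and none higher, with a median of −0.49 (4 with the block). The list also holds genes of presentation by class I. Of these, Tap1 and Psmb9 were among the lower genes (differences −0.495 and −0.413, adjusted p = 0.048 for each from limma). H2-Ab1, a chain of a class II molecule, was at 11.45, 11.36, and 11.32 with 30°C and at 10.37, 9.52, and 9.65 in the coldest group (difference −1.53, adjusted p = 0.00033), and Cd74, the chaperone of class II molecules, fell by 1.47. H2 genes are closely related, and cross-hybridization between them was not tested. Of 15 interferon-stimulated genes 5 were lower, a count that was 3 with the block and 2 with centring. Lymphocyte markers had 4 of 18 lower and mast cell markers 4 of 7, or 2 and 1 with the block. Their summed signals were 980 to 1253 and 343 to 547 with 30°C and 598 to 800 and 127 to 258 with –10°C/–20°C.

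Of 25 collagens, 13 fell and none rose, with a median of −0.63. The count was 12 with the block and 11 with centring. Col3a1, a fibrillar collagen, was at 9.83, 10.15, and 10.43 with 30°C and at 8.49, 7.57, and 7.89 with –10°C/–20°C (difference −2.15, SE 0.24, adjusted p = 0.00016). Col6a1, of the microfibrils around adipocytes, was at 9.85, 9.99, and 10.18 against 8.66, 8.39, and 8.62 (difference −1.45, adjusted p = 6.3e-05). Col1a1 and Col15a1 fell by 2.08 and 1.80. Among 39 other matrix proteins and matrix enzymes, 18 fell and 1 rose, with a median of −0.57, or 16 and 0 with the block. Thbs1, a thrombospondin that activates TGF-β, fell by 2.16, Adamts5, an aggrecan-degrading protease, by 2.04, and Lum, a proteoglycan of collagen fibrils, by 1.53 (adjusted p = 0.00019, 4.4e-05, and 0.0013).

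Of 28 genes of TGF-β and BMP signalling, 8 fell and none rose, with a median of −0.32, or 5 with the block. Bmp2, a ligand of the BMP branch, was at 5.72, 6.45, and 6.10 with 30°C and at 4.93, 4.82, and 4.72 in the coldest group (difference −1.27, adjusted p = 0.00034), and Tgfb1 fell by 0.90 (adjusted p = 0.00046). Stromal progenitor markers had 4 of 23 lower and 1 higher, with a median of −0.34, or 2 and 0 with the block. Of all genes, 11.0% were lower. The member that rose was Pparg, also of the adipocyte and thermogenic lists. The measured defining markers Pdgfra, Dpp4, and Cd34 were not called (adjusted p = 0.11, 0.59, and 0.096 from limma). Their summed signal was 1368.5 to 1807.1 with 30°C and 1029.4 to 1302.7 in the coldest group. Ebf2, which marks beige precursors, fell from 8.22, 7.91, and 8.19 to 7.19, 7.14, and 6.83 (difference −1.05, adjusted p = 0.0003). It is also the gene of the thermogenic list that fell.

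Vessel genes had no common direction. Of 20 endothelial genes, 2 rose, 2 fell, and 16 were not called, with a median of 0.07. These counts are close to the shares over all genes (7.19% higher and 11.0% lower). The summed signal of the endothelial genes overlapped between the groups (7269 to 7648 against 7429 to 8586). Kdr, the main VEGF receptor, was at 8.78, 9.07, and 8.90 with 30°C and at 9.64, 9.61, and 9.67 in the coldest group (difference 0.72, adjusted p = 0.00091). Flt1, a decoy receptor of the same ligands, rose by 0.60, and Aplnr and Cldn5, the apelin receptor and a tight junction protein, fell by 0.89 and 1.44. Among 20 vascular ligands and pericyte genes, 4 rose and 4 fell, or 0 and 3 with the block. Angpt1, which stabilizes vessels, was at 7.12, 7.59, and 7.79 against 6.28, 6.0, and 6.13 (difference −1.36, adjusted p = 0.00028). Vegfa rose by 0.85 (adjusted p = 0.016, lost with the block and without 30°C replicate 1, 30°C replicate 2, or –10°C/–20°C replicate 1).

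Cell division genes were lower in 13 of 31 cases and higher in 1, with a median of −0.37. The count was 8 with the block and with a repeated quantile normalization and 6 with centring, and 8 of the 31 were below background on all 6 arrays. Of the genes called lower, Mki67, Kif11, Kif20a, Tpx2, Cenpe, and Prc1 had both group means below background. Ccna2, a cyclin of DNA replication, was at 5.47, 6.05, and 5.99 with 30°C and at 4.92, 4.33, and 4.82 in the coldest group (difference −1.15, adjusted p = 0.00087). Ccnd2, a cyclin of entry into the cycle, rose by 0.83 (adjusted p = 0.0015). Of 31 lysosomal genes, 14 fell and 2 rose, with a median of −0.34, or 11 and 0 with the block. Among them, Lgmn and Ctsc, proteases abundant in macrophages, fell by 1.21 and 1.20 (adjusted p = 0.00011 and 0.00027).

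Of markers of other tissues that could be cut with the pad, those of epididymis and testis were mostly at background. Of 12 epididymis and testis genes, 9 were below background on all 6 arrays and none of the 12 was called by limma. Mesothelial markers were all above background on at least 1 array, with a summed signal of 2730 to 3488 with 30°C and of 2176 to 2764 in the coldest group, and 1 of 10 was lower, namely Wt1 (−0.42, adjusted p = 0.014, lost with both scalings, in the 6-array fit, and without replicate 3 of either group). Alas2, an enzyme of red blood cells, was at 8.29 on replicate 2 of the coldest group and at 4.65 to 5.64 on the other 5 arrays (difference 1.11, adjusted p = 0.36). Skeletal muscle markers had 1 of 9 lower, Actn3 (difference −0.62, adjusted p = 0.015, lost with the block and without –10°C/–20°C replicate 3 or 30°C replicate 2 or 3), and nerve and Schwann cell markers 2 of 13 lower. The summed signal of the latter was 3393 to 3899 with 30°C and 1907 to 2712 in the coldest group, without overlap. The brightest members of that list with 30°C were Pmp22 and Ntrk2 (means 10.81 and 10.37), which are not among its defining markers. The measured defining markers, Th and Sox10, summed to 59.5 to 71.4 with 30°C and to 65.2 to 70.5 in the coldest group. These ranges overlap, and neither marker was called. The part of these cells in other results was not tested. Of the 2 lower members, Ntrk2, a receptor of neurotrophins, had the larger difference, −1.61 (adjusted p = 5.6e-05).

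The coldest group was set beside the other cold groups to show where it stood apart. These comparisons use the same 3 coldest arrays and are not independent of the one with 30°C. Against –10°C, 1064 genes were called (7.16%), 300 higher (2.02%) and 764 lower (5.14%), and against 4°C 1452 (9.77%), 376 higher (2.53%) and 1076 lower (7.24%). Cyp2b10, Nr4a3, and Pde4d had means of 4.57, 5.65, and 6.55 with 4°C and of 5.33, 5.19, and 7.40 with –10°C, far below the coldest group. Their differences between –10°C/–20°C and –10°C were 4.38, 4.12, and 2.65 (adjusted p = 0.0015, 4.1e-05, and 0.00062). Mc5r and Mfsd2a likewise differed from –10°C, by 2.28 and 2.79 (adjusted p = 0.0004 and 0.0025).

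Other genes were already high with 4°C and –10°C. Agpat2 had means of 11.92 with 4°C, 12.04 with –10°C, and 12.07 in the coldest group, and the difference between the last 2 was 0.03 (adjusted p = 0.94). Gpam and Fasn differed from –10°C by 0.33 and −0.08 (adjusted p = 0.24 and 0.93). Acacb was between, with means of 9.32 with 4°C and 9.54 with –10°C, and was higher in the coldest group than in both (differences 1.04 and 0.81, adjusted p = 0.0013 and 0.0054). Among decreases, Hcar1 was higher with 4°C and –10°C than in the coldest group, at means of 9.63 and 9.73 (difference from –10°C −3.14, adjusted p = 0.00044). Lep was at 10.97, 6.89, and 10.34 with –10°C, with 1 array well below the other 2 (difference −5.10, adjusted p = 0.0057). Col3a1 was lower than with –10°C by 1.53 (adjusted p = 0.0047), whereas Sfrp5 was already at a mean of 5.24 with –10°C (difference −0.08, adjusted p = 0.93).

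**Figure D5:**
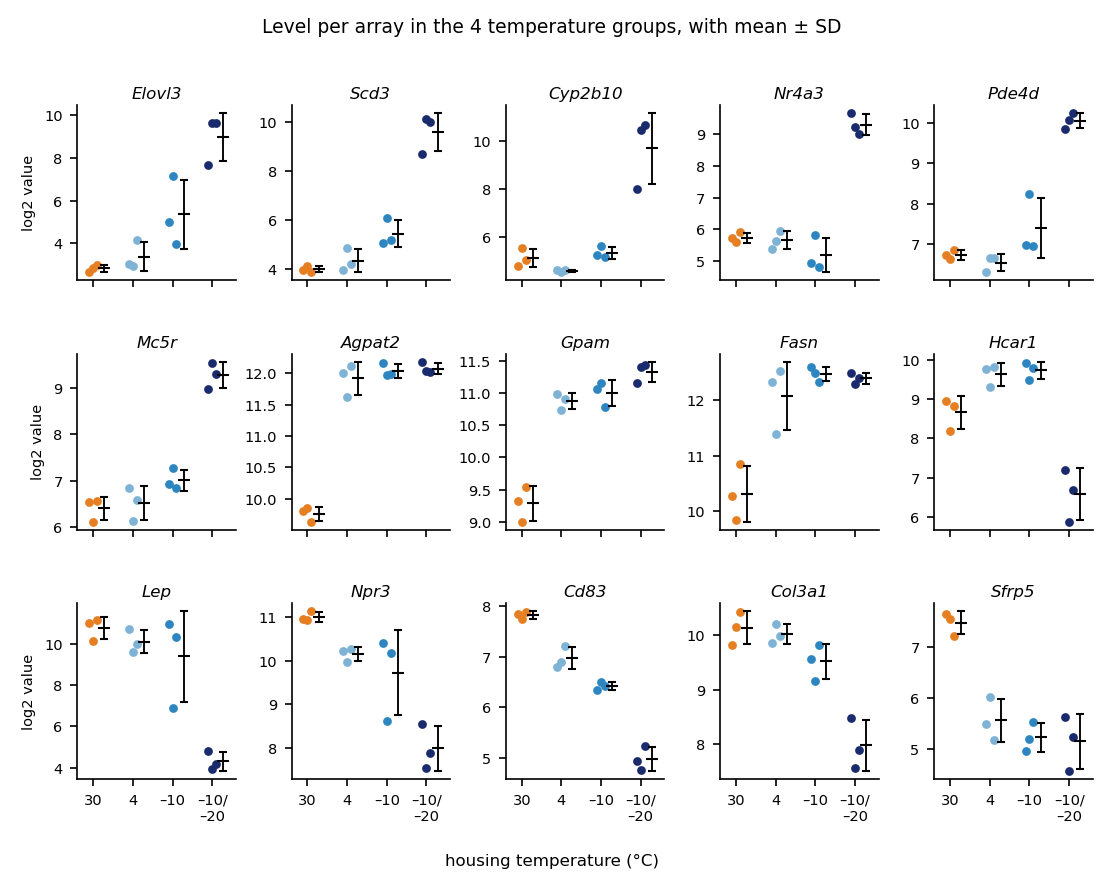
Log2 value of each array (points) and mean ± SD over 3 arrays (black) for 15 genes in the 4 temperature groups, each panel with its own vertical axis. Cyp2b10, Nr4a3, Pde4d, and Mc5r are high in the coldest group only, Agpat2, Gpam, and Fasn are already high with 4°C (mean log2 11.92 for Agpat2), and Hcar1 is low in the coldest group alone.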

How the data were processed

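RNA of epididymal white fat was hybridized to Affymetrix Mouse Exon ST arrays, 12 in all, with 3 per temperature group. The deposited values are log2 signals that the authors obtained by robust multichip averaging (RMA) in Affymetrix Expression Console, a method that corrects background and quantile-normalizes the arrays. Its version is not given in the sources used here. These values were used without further normalization. Quantile normalization gives all arrays similar distributions, so changes are relative. Arrays give no counts, and their number limits the precision.

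Of 23332 probe sets, 14996 had 1 gene symbol, 1019 several, and 7317 none, and the last 2 kinds were not used here. For 135 genes with several probe sets the brightest on average was kept. RefSeq held the symbols of 14941 probe sets, and the promoter sequences are from RefSeq on GRCm38.p6. A lower bound of a fold compares the brighter group's mean with the background level, and was used where every array of the dimmer group was below that level.

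All 12 arrays entered 1 limma fit (limma 3.58.1, R 4.3.3) with 4 group means and no covariate. The Benjamini-Hochberg adjustment ran over all 14860 genes, and genes under an adjusted p of 0.05 were called. Summaries used Python 3.11.15, numpy 2.4.6, pandas 2.3.3, and matplotlib 3.10.9, and the fit was tested on simulated data. The members and gene lists were chosen with earlier results of these data known. Named genes were the 12 largest changes each way among called genes with groups that did not overlap, up to 5 members per list, and fixed genes and families, 237 in all. A further 39 were named after their values were seen. Genes near-identical to others (Scd, Acot, Ces1, H2) may share signal, which was not tested. Alternatives were other scalings, a filter on low values, the mean of probe sets, other variance models and array weights, blocks, the methods' t-test, a 2-fold minimum, and each array left out in turn.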

Additional observations from a re-analysis of the deposited data

How the results depend on the processing

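Of 2707 genes that differed with –10°C/–20°C (1068 higher, 1639 lower), 1585 (555 and 1030) were called with the form of array names blocked. An alternative chosen after seeing the data, with only the 8 arrays of 1 name form, called 1258 (275 and 983). It leaves 1 array of 30°C, for which the spread of the remaining groups is assumed. Array weights gave 4074 (1767 and 2307), a change of at least 2-fold 630 (241 and 389), and the methods' t-test, which uses 6 arrays and no shared variance, 593 (224 and 369). Median centring gave 1905 higher and 1004 lower. Leaving out each array in turn gave 1994 to 2796 genes, 763 to 1207 higher and 1143 to 1719 lower. The other alternatives stayed within 1.5 times of the counts.

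The replicate block called 2879 genes (1160 and 1719). The deviations from the group means of same-numbered arrays of the 2 groups had correlations of 0.38, −0.02, and −0.06 for replicates 1, 2, and 3. These values do not show a pairing that runs through all the numbers. Whether the arrays of replicate 1 shared handling was not tested. Of the variance of such deviations, 48.8% lay on 1 component, so genes do not vary independently, and its source was not tested. Of 245 named genes that were called, 4 lost the call with the replicate block, 47 with the name form blocked, 13 with centring, and 144 with the methods' t-test, while 202 kept it without any 1 array and 73 under every alternative.

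Directions turned only for genes that were not called. Adipoq was at 0.054 with centring, and Pde4a at 0.012 with array weights, 0.104 with centring, and 0.041 with repeated quantile normalization. Prdm16 was at 0.08 and 0.008 with these 2 scalings. Retn was at −0.081 with array weights and −0.022 with the 8 arrays. Without 1 array, Pde3a ranged from −0.265 to 0.009, Prdm16 from −0.155 to 0.008, and Retn from −0.051 to 0.065. Genes under the background level, 3916 on all 6 arrays, limit what can be seen.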
